A study of Rattus norvegicus with 18 samples.

Results

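Crem encodes the cAMP response element modulator, a transcription factor of the CREB family, and it is 1 of 13807 genes named on the arrays used here. Its 6 probe sets were taken as every probe set that the platform annotation assigns to Crem, 3 on array type A and 3 on array type B, out of 31042 counted probe sets, and no probe set was shared between Crem and another gene. Crem was chosen by the signals of these probe sets on the same arrays, which had been seen to differ, so that their levels and differences are descriptions without a test. The arrays measured 9 cell populations from testes of 22-day-old rats, with 1 array of each type per population and no replicates. Of these populations 7 were germ cells and 2 were somatic. The germ cell populations were cells that bound to laminin, cells that did not bind, cells kept for 1, 5, 10 or 20 days on STO feeders, and cells kept for 20 days on MSC1 feeders. Feeders are living cell layers on which germ cells are kept, here the mouse fibroblast line STO or the mouse Sertoli cell line MSC1, and the labels do not say whether feeder cells were removed from those 5 libraries. Laminin is a protein of the basement membrane, on which spermatogonia rest in the tubule. The somatic populations were the interstitial cells between the tubules and the somatic cells of the tubules. The labels describe both laminin fractions as cultured and give no day, they name no rat strain, and no treatment or genetic change is given for any population. Each library represents a mixture of cells, in which fewer cells of a type and less RNA per cell cannot be told apart.

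CREM binds the cAMP response element (CRE), a short palindrome in promoters, through a basic leucine zipper shared with CREB1 and ATF1. The gene makes both activators and repressors through alternative splicing and alternative starts. Its short repressor, ICER, is made from an internal promoter that is itself switched on by cAMP, in pituitary, adrenal, Sertoli and other hormone-responsive cells. In the mouse testis the transcript switches from repressor to activator forms in spermatocytes, and the protein drives genes of the spermatid, with loss of Crem stopping spermatid development. One gene therefore gives rise to many transcripts, and a probe set reads only those that carry its target.

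On the plus strand of chromosome 17 the rat gene (gene 25620) runs from 58932011 to 59001160 in assembly GRCr8, a span of 69150 bases with 46 RefSeq transcripts, of which 8 are curated. RefSeq gives 3 transcript starts, at 58934066, 58984797 and 58985490, so that the second lies 50731 bases and the third 51424 bases after the first. The bases before each start, from RefSeq's GRCr8 windows, are shown because the full CRE, TGACGTCA, which reads the same on both strands, was found at the 2 internal starts and not at the first. Capitals mark the full CRE, each sequence is the plus strand, and the first 3 hold the 250 bases before a start.
Start 1, chr17:58933816-58934065: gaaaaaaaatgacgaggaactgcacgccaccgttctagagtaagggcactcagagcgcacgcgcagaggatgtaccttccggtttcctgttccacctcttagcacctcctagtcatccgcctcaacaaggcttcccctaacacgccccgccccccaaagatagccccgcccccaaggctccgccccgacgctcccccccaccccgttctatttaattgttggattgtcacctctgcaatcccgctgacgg
Start 2, chr17:58984547-58984796: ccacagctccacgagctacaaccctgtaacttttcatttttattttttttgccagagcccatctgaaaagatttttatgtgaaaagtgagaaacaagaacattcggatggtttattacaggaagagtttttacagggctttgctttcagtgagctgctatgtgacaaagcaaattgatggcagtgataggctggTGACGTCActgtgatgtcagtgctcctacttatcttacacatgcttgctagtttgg
Start 3, chr17:58985240-58985489: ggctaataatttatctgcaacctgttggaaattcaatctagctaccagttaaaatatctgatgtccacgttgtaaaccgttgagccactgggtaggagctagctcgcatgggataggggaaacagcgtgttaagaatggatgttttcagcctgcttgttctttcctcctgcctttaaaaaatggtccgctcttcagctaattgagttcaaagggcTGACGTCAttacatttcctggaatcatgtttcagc
After start 3, chr17:58985510-58985539: ctccaagtgagctgcacatTGACGTCAgct

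The CRE of the second start began at position -56, and those of the third start at -35 and at 40, counted from the start. Over windows from 250 bases before to 50 after a start, 1.83% of 33469 windows of all rat genes held a full CRE and 0.0418% held 2 or more. The first start had 2 half-sites, TGACG, at -241 and -6, a motif that 21.2% of all windows held on either strand and that is also part of each full CRE. A GC content of 59.7% in the window of the first start compares with 41.3% and 44.0% at the internal starts. A match is a description of these letters, and the arrays do not say which start was used in any library.

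**Figure D1:**
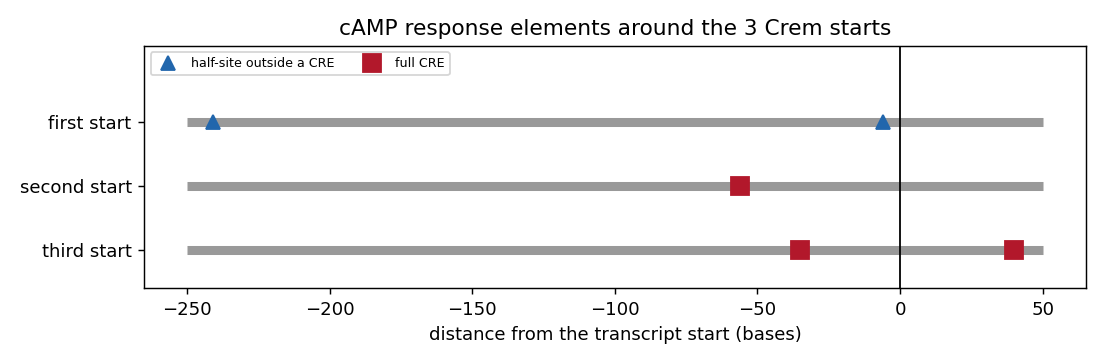
Positions of the full CRE (squares) and of half-sites outside it (triangles) in windows from 250 bases before to 50 bases after each of the 3 RefSeq starts of Crem; the x axis is the distance from the start in bases. The 2 internal starts hold 1 and 2 full CREs, and the first start holds 2 half-sites.

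The 6 probe sets split by array type before any comparison could be made. All 3 on type A lay under the floor of 50, the signal below which values were not ordered, in all 9 libraries, whereas on type B 1378925_at and 1396545_at lay above it in 9 of 9 and 1393550_at in 6 of 9. The type A signals were 0.6 to 14.2 for 1369737_at, 6.4 to 12.4 for 1369738_s_at and 6.3 to 29.8 for 1387714_at. They stood low among the probe sets of their arrays, with 0.0693% to 28.0% of type A probe sets below them. In all, 18.4% of the 15866 probe sets of type A were under the floor in all 9 libraries, as were 8.01% of the 15176 of type B.

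A gene seen by type B and not by type A was uncommon among the genes on both types but not rare. Of 2201 genes with probe sets on both, 185 (8.41%) had every type A probe set under the floor in all libraries, and 95 (4.32%) also reached a signal of 250 on type B, Crem among them. Of the 95 genes with at least 3 type A probe sets, Crem was 1 of 4 in which all of them stayed under the floor. A summary that reads each gene from its brightest type A probe set therefore lists no level for Crem. With the floor lowered to 25, 1387714_at passed it in 4 libraries and its highest signal was 1.19-fold above that floor.

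Crem signal on probe set 1378925_at was highest in non-binding germ cells and rose during culture on STO. It read 245 in laminin-binding and 2802 in non-binding cells. On STO feeders it read 145 on day 1, 199 on day 5, 335 on day 10 and 1506 on day 20. On MSC1 feeders on day 20 it read 175, and in the somatic fractions it read 1239 in interstitial and 502.5 in tubular cells. Non-binding cells, STO day 20 and interstitial cells were thus the 3 high libraries. Tubular cells lay between these and the other 5 germ cell libraries, which all read 335 or lower.

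The second probe set of type B, 1393550_at, was dim and had the same 4 libraries on top. It read 42.6 in binding and 225 in non-binding cells. On STO it read 85.7, 123, 50 and 236 on days 1, 5, 10 and 20, and on MSC1 21.1. The interstitial signal was 182 and the tubular signal 127. Binding cells, STO day 10 and MSC1 were at or under the floor, and the value of day 10 interrupted the rise from day 1 to day 20.

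The third, 1396545_at, covered a range of only 2.42-fold and had the interstitial library among its low ones. Its signal was 142 in binding and 223 in non-binding cells. On STO it was 111, 112, 97.7 and 193.5 on days 1, 5, 10 and 20, and on MSC1 116. Interstitial cells read 92.2, the lowest of the 9 libraries, and tubular cells 98.4. The interstitial signal was 0.08 in log2 below that of STO day 10, within the array error given below. Non-binding cells and STO day 20 were again the highest pair, but the interstitial library, which is among the high ones on both other probe sets, was not.

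**Figure D2:**
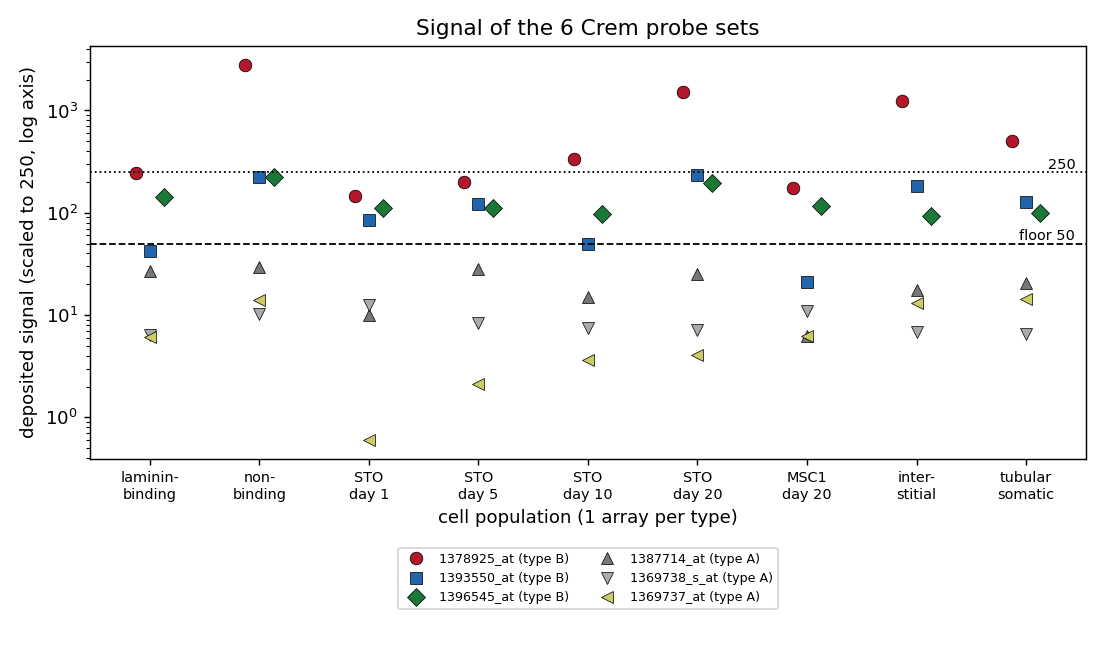
Deposited signal of each Crem probe set in the 9 populations, on a log axis, 1 point per array; the dashed line is the floor of 50 and the dotted line the minimum of 250 for the brighter side of a call. All type A points lie under the floor, 1378925_at passes 250 in 5 libraries, and the other type B probe sets stay under 250.

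The order of these levels was set against an array error measured on the 100 probe sets that both array types carry. The log2 folds of the 2 types differed with a standard deviation per type of 0.25, averaged over all 36 pairs of populations, and of 0.35 over the 13 of these probe sets with mean signals under 500. Gaps beyond 2 of these standard deviations are at least 0.49 and 0.70 on the log2 scale. On 1378925_at non-binding cells stood above STO day 20 by 0.90, beyond both. STO day 20 and interstitial cells differed by 0.28, within both, and interstitial cells stood above tubular cells by 1.30, beyond both. Tubular cells and STO day 10 differed by 0.59, beyond the smaller limit alone, and no neighbouring pair below STO day 10 was separated by more than 0.45. On 1396545_at no neighbouring pair was separated beyond either limit. This error covers the arrays and not animals, cultures or amplification.

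Called folds came from 1378925_at alone. To be called, a probe set needed a fold of 3 or more and a signal of 250 or more on its brighter side, so that 1393550_at and 1396545_at, whose highest signals were 236 and 223, could not be called in any comparison. With 1 of 6 probe sets called in 6 of the 10 comparisons, nothing was read from these counts against the background, since the gene was chosen with these results known. The folds themselves are given as descriptions, without an error of their own or a p-value.

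In laminin-binding cells 1378925_at was 11.4-fold lower than in non-binding cells, a comparison in which 3.82% of all probe sets were called lower. Of the 15176 probe sets of type B, 92 had a fold of that size or more in either direction. The 1393550_at signal was at least 4.50-fold lower at the floor used, and that of 1396545_at 1.57-fold lower. The bound of 1393550_at depended on the floor, as did its other bounds given below. In log2 fold it was -2.17, and -1.17 with a floor of 100. All 3 probe sets thus had the lower signal in binding cells, with sizes from -3.52 to -0.65 in log2 fold. The summed signal of 9 marker genes of pachytene and later spermatocytes was 1308 in binding and 23651 in non-binding cells, with 5 and 9 of the genes above the floor, and that of 7 meiotic prophase genes was 9535 and 17499. Tex15, the brightest of the 7 and in mouse a gene of meiotic break repair, ran the other way, with 6778 in binding and 3681 in non-binding cells, and the other 6, summed without it after the values were seen, gave 2757 and 13818. The part of these markers' cells in the Crem difference was not tested.

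On STO feeders day 20 was 10.4-fold above day 1 by 1378925_at, where 2% of all probe sets were called higher. The steps were 1.37-fold to day 5, 1.68-fold to day 10 and 4.50-fold to day 20, and for the last step 1.22% of all probe sets were called higher. A rise at every step together with a call from day 1 to day 20 was seen for 126 of 15176 probe sets of type B (0.83%). For 1378925_at the step to day 5, 0.46 in log2 fold, was within both array error limits. As the gene was chosen with these values known, the share is a description. By 1393550_at day 20 was 2.75-fold above day 1 and at least 4.72-fold above day 10, and by 1396545_at 1.74-fold and 1.98-fold. The last step was upward on all 3 probe sets, while the step from day 5 to day 10 was upward on 1378925_at (0.75 in log2 fold) and downward on 1393550_at (-1.30) and 1396545_at (-0.20).

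Marker genes moved with the day 20 library. Spo11, whose product cuts DNA to start meiotic recombination, read 102, 179, 62 and 2381 on days 1, 5, 10 and 20, and the synaptonemal complex gene Sycp2 read 215, 255, 333 and 2501. In contrast, the spermatocyte enzyme gene Ldhc read 149, 70.1, 4.1 and 24.7, and Crisp2, a sperm acrosomal protein gene, was under the floor on all 4 days. On these days the 7 meiotic prophase markers, all above the floor, summed to 17454, 20479, 16080 and 25130. Of these Tex15 read 13775, 17497, 12646 and 8349, lowest on day 20, and the other 6, each highest on day 20, summed to 3680, 2982, 3434 and 16781. The 9 pachytene markers summed to 1726, 1452, 1924 and 3703, with 6, 6, 5 and 3 of them above the floor, and Tex101 alone gave 2697 of the sum on day 20. The 9 markers of undifferentiated spermatogonia summed to 5059, 3794, 2458 and 2845, with 9, 9, 8 and 5 above it. Epcam alone gave 2002 of the sum on day 20, and it read 768, 704 and 771 on days 1, 5 and 10. Of the 7 prophase markers 6 were thus highest on day 20, while fewer spermatogonial and pachytene genes were above the floor than on day 1. The 8 fibroblast and matrix markers summed to 2022, 1596, 2101 and 4347, with 6, 6, 5 and 7 above the floor. The 8 macrophage markers summed to 522, 790, 571 and 1467, with 5, 7, 4 and 4 above it. Their part in the rise of Crem was not tested.

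On MSC1 feeders on day 20 the 1378925_at signal was 8.60-fold lower than on STO on the same day, a comparison of feeder types in which 2.34% of all probe sets were called lower. The 1393550_at signal was at least 4.72-fold lower, with MSC1 under the floor, and that of 1396545_at was 1.67-fold lower. Spo11 read 116 on MSC1 against 2381 on STO, and Sycp2 347 against 2501. The 7 meiotic prophase markers, all above the floor in both, summed to 18409 on MSC1 and 25130 on STO. Tex15 read 14006 on MSC1 and 8349 on STO, and the other 6, each lower on MSC1, summed to 4404 and 16781. The 11 Sertoli markers summed to 2197 on MSC1 and 967 on STO, with 9 and 7 above the floor, and the tight junction gene Cldn11 among them read 616 and 55.6. The 8 fibroblast and matrix markers summed to 4432 and 4347, with 6 and 7 above the floor. The 8 macrophage markers summed to 2346 and 1467, with 7 and 4 above the floor, and the 9 spermatogonial markers to 5092 and 2845, with 9 and 5. Among the spermatogonial markers Epcam ran the other way, with 636 on MSC1 and 2002 on STO, as did Sox3 with 144 and 172. The part of these in the Crem difference was not tested.

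STO day 20 and non-binding cells, the 2 germ cell libraries with the most Crem signal, were not separated by a call, and 2.1% of all probe sets were called lower on STO day 20. By 1378925_at day 20 was 1.86-fold lower, by 1396545_at 1.15-fold lower and by 1393550_at 1.05-fold higher. Both libraries had similar signals of Spo11, 2381 and 2417, but Ldhc read 24.7 on STO day 20 and 6938 in non-binding cells. Crem signal on these probe sets was thus high in a library with Ldhc under the floor.

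Between laminin-binding and interstitial cells the probe sets had opposite signs. The log2 fold of 1396545_at, 0.63, exceeded the smaller array error limit of 0.49 but not that of dim probe sets, 0.70. With quantile normalization it was 0.40, within both. Against interstitial cells, laminin-binding cells were 5.06-fold lower by 1378925_at and at least 3.63-fold lower by 1393550_at, in a comparison with 6.84% of all probe sets called lower, but 1.54-fold higher by 1396545_at. The difference between 1378925_at and 1396545_at was -2.96 in log2 fold, and 5.48% of the 1114 other same-gene pairs on type B were at least as far apart. Non-binding cells were 2.26-fold, 1.24-fold and 2.42-fold higher than interstitial cells by 1378925_at, 1393550_at and 1396545_at, none of them a call, beside 5.26% of all probe sets called higher. Against tubular cells they were 5.58-fold higher by 1378925_at, where 5.29% of all probe sets were called higher, and 1.77-fold and 2.27-fold higher by 1393550_at and 1396545_at. Binding cells were 2.05-fold lower than tubular cells by 1378925_at, at least 2.54-fold lower by 1393550_at and 1.45-fold higher by 1396545_at, with no call beside 5.25% of all probe sets called lower.

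Some germ cell transcripts had signal in interstitial cells. Crisp2 read 448 and Ldhc 261 there, against 3811 and 6938 in non-binding cells, and 6 of 9 pachytene markers were above the floor with a sum of 1116. In contrast, Spo11, Sycp1 and Sycp2 were under the floor in interstitial cells, and the 7 meiotic prophase markers summed to 464. The Leydig cell enzyme gene Hsd3b1 read 2400 and the cholesterol carrier gene Star 2094 in the same library, and 5 of 7 Leydig markers, all but Insl3 and Nr5a1, were above the floor. All 8 fibroblast and matrix and all 8 macrophage markers were above it too, with sums of 24138 and 2977, the highest of the 9 libraries. Tubular cells had 9 of 11 Sertoli markers above the floor, with Sox9 and Amh under it, and a sum of 12727 beside 6538 in interstitial cells. The part of any of these cells in the Crem signal of the somatic fractions was not tested. Tubular cells were 2.47-fold lower than interstitial cells by 1378925_at and 1.43-fold lower by 1393550_at, and 1.07-fold higher by 1396545_at, with no call beside 3.17% of all probe sets called lower.

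**Figure D3:**
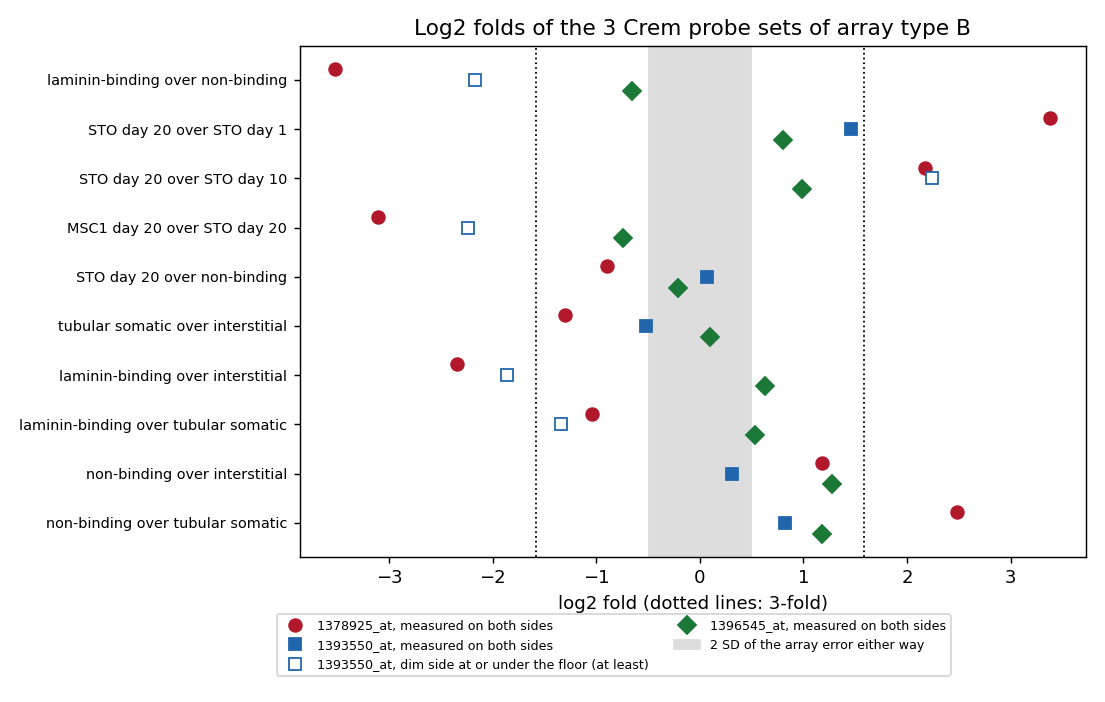
Log2 folds of the 3 type B probe sets of Crem in 10 comparisons, 1 point per probe set; open symbols have their dim side at or under the floor, the grey band is 2 standard deviations of the array error either way and dotted lines mark 3-fold. The widest gap, -2.96 between 1378925_at and 1396545_at (diamonds), is in binding over interstitial cells, and in non-binding over interstitial cells the same pair differs by -0.10.

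The disagreement between the type B probe sets lay in size more than in direction. Of 10 comparisons 1378925_at and 1393550_at had opposite signs in 1, 1378925_at and 1396545_at in 3, and 1393550_at and 1396545_at in 4. Against the array error of dim probe sets, both folds exceeded 2 standard deviations in none of these, and against that of all 100 shared probe sets in 0, 2 and 2 of them. One of these was binding over interstitial cells, at -2.34 on 1378925_at, -1.86 on 1393550_at and 0.63 on 1396545_at. Over all 10 comparisons the folds differed by more than 2 standard deviations of a difference between folds in 3, 8 and 5 for these pairs by the error of dim probe sets, and in 7, 8 and 6 by that of all shared probe sets. Folds of 1393550_at against a signal at or under the floor entered these counts at their lower bound. The counts of its pairs therefore depend on the floor. The widest gap without opposite signs was that between 1378925_at and 1396545_at in binding over non-binding cells, at -2.87 in log2 fold, and 3.05% of other same-gene pairs were as far apart.

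Across the 9 populations the log2 signals of 1378925_at and 1393550_at correlated with a Pearson r of 0.81 (Spearman rho 0.76). For 1378925_at and 1396545_at r was 0.57 (rho 0.23), and for 1393550_at and 1396545_at it was 0.46 (rho 0.25). These are descriptions over 9 points that share their arrays. Within the 7 germ cell populations the values were 0.78, 0.90 and 0.77. Leaving out the interstitial library moved r of 1378925_at and 1396545_at to 0.80, and leaving out non-binding cells moved it to 0.25. Without non-binding cells r of 1393550_at and 1396545_at was 0.23 and without STO day 20 it was 0.28.

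Same-gene pairs of other genes gave the scale for these values. Among 1114 pairs from 732 other genes on type B with mean signals of at least 100, the median r was 0.45 with quartiles of 0.09 and 0.71, and 19.9% of pairs were below 0. The Crem pairs were above 84.8%, 61.5% and 50.0% of them. By Pearson correlation the type B probe sets of Crem were therefore at or above the middle of these same-gene pairs. No minimum range over the populations was set for the other pairs, whereas 1378925_at ranged 19.3-fold, so that the scale is a rough one. For Spearman rho no such scale was made. The label of disagreement applies to the fold sizes of the Crem probe sets and to the silence of type A. For their signs in binding over interstitial cells it holds by the array error of all shared probe sets, and not by that of dim ones.

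**Figure D4:**
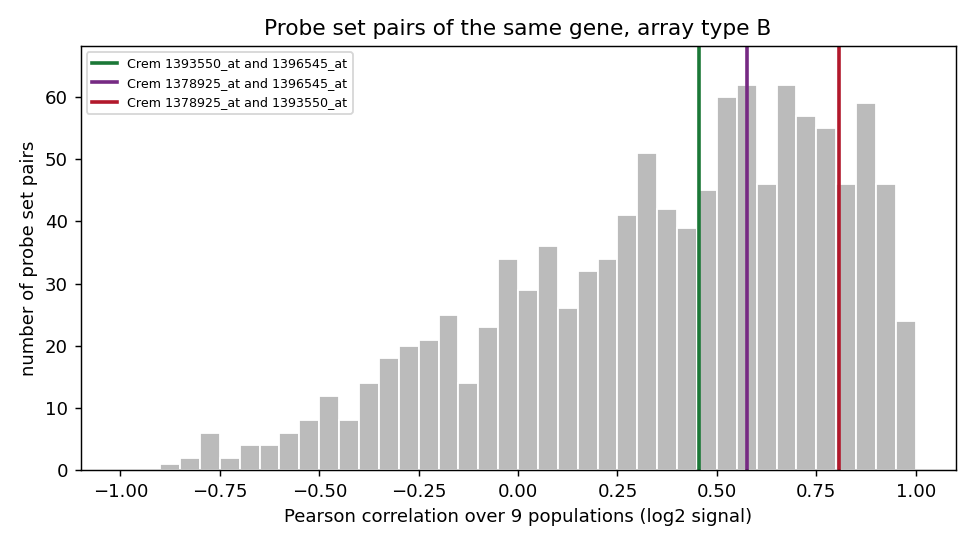
Number of same-gene probe set pairs by Pearson correlation of log2 signal over the 9 populations, for 1114 pairs of other genes on array type B (bars), with the 3 Crem pairs as vertical lines. The Crem pairs lie at 0.46, 0.57 and 0.81 and the median of the other pairs is 0.45.

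The genes whose pattern was most like Crem differed with the probe set used. They were sought among the 3455 probe sets of 2957 genes on type B whose signals averaged 100 or more and ranged over 3-fold or more, as the 6 genes with the highest Pearson r over the 9 populations. For 1378925_at these were Tmem209 (r 0.97), the chromatin remodelling subunit gene Arid2 (0.96), the lipid transfer protein gene Osbpl8 (0.96), the peptide N-glycanase gene Ngly1 (0.96), the renalase gene Rnls (0.96) and Ppp4r2, which encodes a regulatory subunit of protein phosphatase 4 (0.94). Ngly1 read 462 in binding and 3506 in non-binding cells, 446 and 2559 on STO days 1 and 20 and 2792 in interstitial cells. All 6 had more signal in interstitial than in laminin-binding cells, which their choice by likeness to 1378925_at made likely beforehand.

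For 1393550_at the 6 genes were Dpagt1 (r 0.93), the first enzyme of N-glycan assembly, Syap1 (0.90), the trafficking gene Mon2 (0.89), the Hippo pathway gene Mob1b (0.88), the peroxisomal import receptor gene Pex7 (0.88) and Rnls (0.86), which was also near 1378925_at. For 1396545_at they were Rad9b (0.95), a paralogue of a DNA damage checkpoint gene, Styxl1 (0.93), Sanbr (0.91), Serf1 (0.91), the zinc finger gene Ikzf5 (0.91) and Cdadc1 (0.91). Rad9b read 187 in binding and 2212 in non-binding cells, 131 and 715 on STO days 1 and 20, and 60.6 in interstitial cells. Its highest libraries were non-binding cells and STO day 20 and its lowest was the interstitial one. Rad9b was chosen for likeness to 1396545_at, so that this shared order is no separate result. These likenesses rest on 9 shared libraries and on the highest of many values. By Spearman correlation 1, 2 and 0 of the 6 genes stayed among the first 6.

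**Figure D5:**
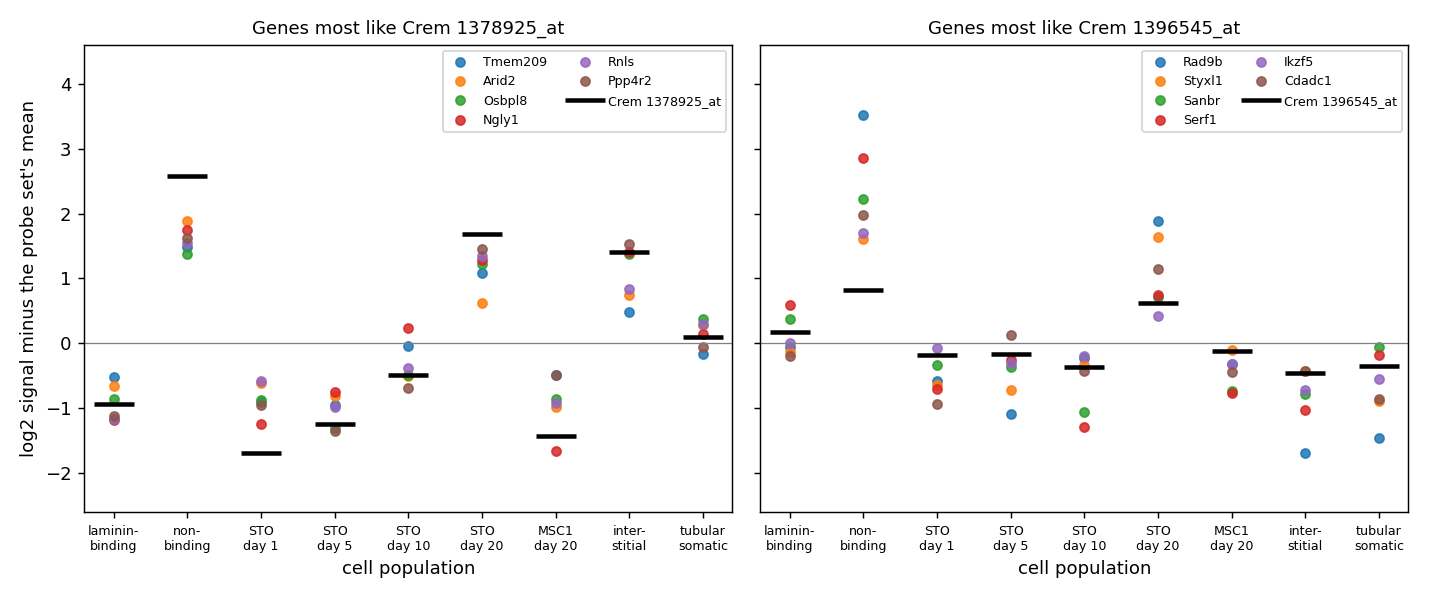
Log2 signal minus each probe set's mean over the 9 populations, for Crem (black bars) and the 6 genes most like it (coloured points), for 1378925_at on the left and 1396545_at on the right. The genes on the left are high in interstitial cells, and those on the right lie below their own mean there. Their choice by likeness to each Crem probe set made this likely beforehand.

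The rest of the pathway was read from 9 lists, each gene by its brightest probe set on type A, or on type B where type A had none. A gene was measured in a comparison if either side was above the floor, and read in this way Crem itself was not measured. Among CREB family genes, Atf1 had a bright probe set that read 1645 to 2690 in the 9 populations. Creb1 read 75.7 to 328 on its brightest of 3 type A probe sets, while the other 2 stayed under the floor. Neither gene was called in any comparison. Between binding and non-binding cells 0 of 8 measured family genes were called, beside 5.7% of all measured genes higher and 6.49% lower. It was again 0 of 8 between STO day 20 and day 1 (2.56% and 4.5%) and between MSC1 and STO (4.14% and 3.16%). With 8 genes such counts are near these shares, and nothing was read from them. Creb3 was called lower in binding cells than in both somatic fractions, and in non-binding than in tubular cells. Creb3l1 was called lower in both laminin fractions than in interstitial cells. Of all measured genes, 10.2% were called lower in binding than in interstitial cells and 8.13% lower in binding than in tubular cells. For non-binding cells these shares were 11.9% and 10.7%. In the same order 2, 1, 1 and 1 of 8 measured family genes were lower, and nothing was read from these counts.

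Between binding and non-binding cells 5 of 71 measured genes of the 9 lists were higher and 7 lower, shares of 7.04% and 9.86% beside 5.7% and 6.49% of all measured genes. The lists were chosen with earlier results of these data known, so that these counts are descriptions. The cAMP-induced list had 4 of 10 higher in binding cells. Fosb was 8.84-fold higher, Egr1 5.77-fold, Ier2 5.63-fold and Fos 5.17-fold, all early response genes, and the list's median log2 fold was 1.36 beside 0.21 for all genes. Lower were Taf7l (3.75-fold), a germ cell form of a TFIID subunit, Pde3b (3.22-fold) and Pde8a (4.08-fold), which break down cAMP, Akap12 (4.72-fold), an anchor of protein kinase A, and Pkib (at least 6.08-fold), an inhibitor of that kinase. Prkar2a, a regulatory subunit of the kinase, was 3.39-fold higher. The adenylyl cyclase list and the other kinases list had none of 5 genes each called, with median log2 folds of 1.25 and -0.02.

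Of 15 spermatid genes on the arrays that are described as CREM targets in mouse, 7 were measured between binding and non-binding cells, and Ldhc and Crisp2 were lower in binding cells, by 53.7-fold and at least 76.2-fold. The median log2 fold of the 7 was -0.41. Tnp1 and Tnp2, the transition proteins that replace histones in spermatids, the protamine gene Prm2, the sperm tail gene Akap4 the sperm mitochondrial gene Smcp and the spermatid histone gene Hils1 were under the floor in all 9 libraries. Prm1 passed it in 1, with 56.8 on STO day 5. Of the 16 genes of the list with a promoter window, 1 had a full CRE, Tnp1, and of the 12 cAMP-induced genes with one, 4 did, namely Areg, Dusp1, Ier2 and Ppargc1a. Beside these counts, 1.83% of all windows held a full CRE. That share is per window, and the 2 lists had 18 and 17 windows. Genes listed as cAMP-induced were likely beforehand to hold CREs, so that nothing was read from these counts.

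On feeders calls were few among these genes, as they were among all measured genes. On STO day 20 against day 1, 2 of 64 measured genes were higher and 1 lower, beside 2.56% and 4.5% of all measured genes. Fosb was 3.71-fold and Star 6.47-fold higher, and the adenylyl cyclase gene Adcy6 was 4.13-fold lower. None of the 4 measured spermatid targets was called, and none of 10 coactivators and partners, of 12 genes of protein kinase A and its anchors or of 9 phosphodiesterases. Between MSC1 and STO on day 20, 2 of 69 were higher and 1 lower, beside 4.14% and 3.16%. Adcy6 was 11.8-fold and Adcy9 4.65-fold higher on MSC1, and Star was 3.54-fold lower.

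Between the somatic fractions 6 of 66 measured genes were higher in tubular cells and 7 lower, beside 4.01% and 4.93% of all measured genes. Higher in tubular cells were the inhibin subunit genes Inha (8.37-fold) and Inhba (at least 8.94-fold), Pkig (3.95-fold), Rps6ka2 (3.64-fold), Creb3 (3.48-fold) and Pde7a (3.27-fold). Higher in interstitial cells, the somatic fraction with more Crem signal on 1378925_at, were Prkar2b (10.4-fold), a regulatory subunit of protein kinase A, Egr1 (4.92-fold), Adcy6 (3.25-fold), the catalytic subunit gene Prkacb (3.21-fold), Star (3.12-fold), Ldhc (3.75-fold) and Crisp2 (at least 8.96-fold). The luteinizing hormone receptor gene Lhcgr read 104 in interstitial cells and was under the floor in the other 8 populations.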

How the data were processed

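Signal intensities, 1 value per probe set on a linear scale, were deposited by the authors for 18 arrays. Per the labels, each array started from 50 ng RNA amplified in 2 rounds and was scaled to an average of 250. The factors spanned 0.391 to 1.51 for type A arrays and 1.05 to 4.01 for type B arrays. Detection calls with a Tau of 0.015 were not used here. The scanner software and any background step were not given in the sources used here. Scaling to one average makes each signal relative to its array. A signal therefore has no error of its own, and the number of arrays limits precision.

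Probe sets were named through the platform annotation, with symbols updated by gene ID from RefSeq, and 57 control probe sets per type were left out. This gave 1 gene to 12789 probe sets of type A and 7570 of type B, several to 312 and 100 (none of them named), and none to 2822 and 7663. Where both types carried a probe set, as 100 did, its type A value was used. Signals were raised to a floor of 50 and taken to log2 with Python 3.11.15, pandas 2.3.3 and numpy 2.4.6. A fold against a signal at or under the floor is a lower bound for that floor, and a higher floor gives a smaller one. The named genes are the 6 with the highest Pearson r to each Crem probe set averaging 100 or more, and called members of the 9 lists. Calls and ranking were tested on simulated data. There are no replicates and no test was run. The members and lists were chosen with earlier results of these data known. Alternatives were floors of 25 and 100, a floor at one unscaled signal, scaling to the 75th percentile, quantile normalization, other call limits, averaging a gene's probe sets, and leaving out populations. Probe sequences were not used here, so that no probe set was placed on a transcript.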

Additional observations from a re-analysis of the deposited data

How the results depend on the processing

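With 1 array per population and type, no alternative gives a p-value, and values were compared with the array error. The 1378925_at folds kept their direction under every alternative run. Floors of 25 and 100 could not move them, since the lowest signal of this probe set was 145. Over all Crem probe sets 128 alternative log2 folds moved by less than the array error and 21 by more, and no called fold changed sign. The 128 include folds that could not move. These are the folds of 1378925_at with both floors and of 1396545_at, whose lowest signal was 92.2, with a floor of 25. Counted once per alternative and comparison, the number of called Crem probe sets was unchanged in 56 cases and higher in 14. The unchanged cases include those of floors of 25 and 100, which could not change this number. The lower limits for the fold and for the brighter side could only raise it. With 75th percentile scaling 2 probe sets were called in binding over non-binding cells, STO day 20 over day 1, STO day 20 over day 10 and MSC1 over STO, with quantile normalization 2 in these but STO day 20 over day 1, and with a lower minimum for the brighter side again 2 in those 3 and in binding over interstitial cells. With a fold of at least 2, 1 was called in tubular over interstitial, binding over tubular and non-binding over interstitial cells. The correlation of 1378925_at and 1393550_at was 0.94 with a floor of 100 and 0.76 to 0.88 with each population left out. That of 1378925_at and 1396545_at was 0.90 in the 7 germ cell populations and 0.25 to 0.80 with each population left out. That of 1393550_at and 1396545_at was 0.68 with a floor of 100, 0.56 with 75th percentile scaling, 0.61 with quantile normalization, 0.77 in germ cells and 0.23 to 0.65 with each population left out. When a gene's probe sets were averaged, 3 list genes were higher in binding than in non-binding cells in place of 5, 1 higher and 0 lower on STO day 20 than on day 1 in place of 2 and 1, and 0 lower on MSC1 in place of 1. With a floor of 100, 1 was higher on STO day 20 than on day 1, and with 75th percentile scaling 2 were lower on MSC1. By Spearman correlation 1, 2 and 0 of the 6 genes like 1378925_at, 1393550_at and 1396545_at remained among the first 6. The median log2 fold of all genes in binding over non-binding cells was 0.21, and 0.11 and 0.06 with 75th percentile scaling and quantile normalization, and in MSC1 over STO it was 0.23, 0.10 and 0.04. The bounds of 1393550_at depended on the floor. In log2 fold binding over non-binding cells gave -2.17, then -1.17 with a floor of 100 and -1.25 with the unscaled floor. In the same order, binding over interstitial cells gave -1.86, -0.86 and -0.94, and binding over tubular cells -1.34, -0.34 and -0.42. MSC1 over STO gave -2.24, -1.24 and -1.69, and STO day 20 over day 10 gave 2.24, 1.24 and 2.24. With a floor of 25 the last stayed and the others were larger. The dim probe sets 1393550_at and 1396545_at lie within a few fold of the floor, which limits their folds. The cause of these changes was not tested. No paired analysis was possible because each population has 1 array of each type and the labels give no replicate numbers.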
